A study of Mus musculus with 61 samples.

Results

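The late response of control hepatocytes to IL-6 was read from 14 of the 61 arrays of a mouse study, 7 taken before IL-6 (0 h) and 7 taken 12 h after it was added. The arrays were chosen by genotype and time as the columns of the signal table name them, and paired by the number that follows the genotype there. All cells came from mice on a C57BL/6 background with a floxed gp130 gene (Il6st) and no Cre, which the labels call wild type and which are named gp130flox here. The comparison group of the study, gp130-, comprised littermates whose floxed gene is removed by Cre recombinase under the albumin promoter, so the deletion is limited to cells that use this promoter. Isolated cells were grown on collagen, kept without serum overnight and given 200 ng/mL IL-6 in serum-free medium. RNA was measured on Illumina MouseWG-6 v2 bead arrays, where a brighter probe means more of its transcript. Every later array had IL-6, so IL-6 and 12 h of further culture cannot be told apart within gp130flox cells.
IL-6 binds its receptor together with gp130, which activates Janus kinases and the transcription factor STAT3. In hepatocytes this pathway drives the acute phase response, the shift of secretion towards plasma proteins of inflammation, and it induces its own inhibitors of the SOCS family. C/EBP-beta and regulators of NF-kappaB also take part in the response.
Levels are log2 signals after background correction and quantile normalization, and a change is 12 h minus 0 h within a preparation, the name used here for arrays of 1 genotype and number. The sources used here do not say whether a number is 1 mouse, so the p-values measure the spread between these preparations. For each of 12157 genes detected on at least 5 of the 61 arrays, of 19057 on the array, the brightest probe was tested with limma with the preparation as a block. A gene was called at a Benjamini-Hochberg adjusted p under 0.05 and a fold over 1.5. Gene lists were chosen with earlier results of these data known, so the share called in a list is no independent evidence. In bulk RNA, fewer cells of a type and less RNA per cell cannot be told apart.

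The 14 arrays detected 16430 to 19256 of 45281 probes. Preparations 1 and 2 stood apart from preparations 7 to 11. Apoa1, which encodes the main protein of high-density lipoprotein, was at 7.26 ± 0.37 (SD, n = 4 arrays) in preparations 1 and 2 and at 14.20 ± 0.13 (SD, n = 10) in preparations 7 to 11. Cyp2e1, a cytochrome P450 of mature hepatocytes, was detected on 0 of 4 and on 10 of 10 arrays, and Asgr1, a subunit of the hepatocyte asialoglycoprotein receptor, averaged 4.93 and 11.22. Hnf4a, a transcription factor of hepatocyte identity, was at 8.70 and 7.88. Anln and Top2a, genes of dividing cells, averaged 10.23 and 7.75 in preparations 1 and 2 and 4.68 and 4.29 in the others. Krt19, a keratin of bile duct cells, averaged 8.20 and 4.40, but the summed bile duct and progenitor markers overlapped, at 3618 to 4711 and 2832 to 4329. The summed signal of the hepatocyte markers was 23225 to 33641 in preparations 1 and 2 and 100512 to 119778 in preparations 7 to 11, with 10 of 19 markers detected on all 14 arrays. Preparations 1 and 2 thus lacked or were low in several defining hepatocyte markers that preparations 7 to 11 had. The Alb probe was detected on 0 of 4 arrays of the former and 9 of 10 of the latter, near background in both (4.24 and 5.41). Calls that do not hold in preparations 7 to 11 alone are listed with the counts.
Kupffer cell markers were present, with 11 of 16 detected on all 14 arrays, and their sum was 6057 to 12900 at 0 h and 6148 to 14391 at 12 h. By set, it was 6057 to 6853 in preparations 1 and 2 and 11558 to 14391 in preparations 7 to 11. The endothelial sum was 563 to 984 and 1684 to 2664, so both were lower in preparations 1 and 2. Neutrophil and lymphocyte markers were near background, with none detected on all 14 arrays.

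After 12 h with IL-6 54 genes were higher (0.444% of the genes tested) and 16 were lower (0.132%), 70 in all (0.576%). The rises were led by Socs3, the feedback inhibitor of the pathway, the protease inhibitor Timp1, the acute phase gene Saa3 and the iron hormone Hamp. The falls were led by Ddc and were smaller, with 1 gene past a fold of 2 against 15 among the rises. All 54 higher genes were higher in all 7 preparations, and 15 of the 16 lower genes were lower in all 7, the exception being Pdpk1, which was lower in 6. Over all genes tested 2.66% were higher and 2.06% lower in all 7 preparations. The calls were made from these same changes, so the shared direction is no independent evidence. The median change over all genes was 0.00, with 6236 genes above 0 and 5921 below.
The arrays of the 2 times did not overlap for 8 of the higher genes (0.0658% of all genes tested) and 2 of the lower genes (0.0165%). These were Socs3, Denn2b, Nfkbiz, Noct, Gcnt2, B4galt1, Cebpb and Sh3pxd2b, and Sgms2 and Atp1b1. In preparations 7 to 11 alone 51 genes were higher (0.420%) and 17 lower (0.140%), and these included 32 of the 54 and 7 of the 16. The 22 rises not called there, at adjusted p = 0.0511 to 0.147 in limma, were Aig1, B4galt1, Cirbp, Cish, Gcnt2, H6pd, Hamp, Havcr1, Hif1a, Icam1, Il1r1, Lcn2, Lrg1, Mrap, Nat8f2, Serpina10, Serpina7, Sh3pxd2b, Susd1, Syt12, Tmem53 and Vmo1. The 9 falls not called there, at adjusted p = 0.0525 to 0.156, were Abca6, Atp1b1, Bcl2l14, Mospd1, Pdpk1, Pip4p2, Plat, Ugt2b35 and Xkr9. In turn 19 rises and 10 falls were called in preparations 7 to 11 only, Fga, Cxcl10, Slc7a2 and Sgk2 among them. In preparations 1 and 2 the mean change had the same sign for all 54 and all 16 genes. These preparations were part of the fit that made the calls, so the shared sign is no independent evidence.
The number called depended on the block and on single preparations. Without any block 6 genes were higher and 1 lower. With the set of preparations as the only block, a setting added after seeing the data, 54 were higher and 9 lower. Without preparation 9 the counts were 27 and 4, without preparation 11 they were 27 and 5, and 10 and 8 genes were lower without preparations 7 and 8, against 26 without preparation 10.

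**Figure D1:**
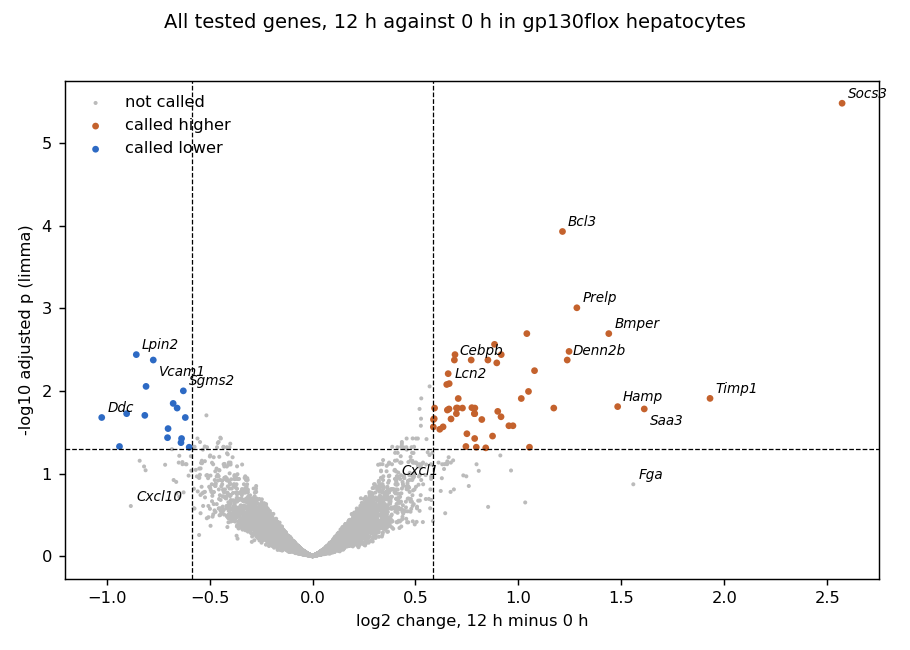
Each point is 1 of 12157 genes, with its log2 change from 0 h to 12 h in gp130flox hepatocytes on the x axis and -log10 of limma's adjusted p on the y axis. Dashed lines mark an adjusted p of 0.05 and a fold of 1.5 in each direction. The 54 called rises reach farther from 0 than the 16 called falls.

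The promoters of the 4 genes with the largest rises are shown because STAT3 binds sites of the form TTCNNNGAA, which reads the same on both strands. The 250 bases before the RefSeq start of each gene are given 5′ to 3′ in the direction of the gene, in build GRCm38.p6, with a match in capitals. The windows lie at chr11:117969367-117969616 on the minus strand for Socs3, at chrX:20869916-20870165 on the plus strand for Timp1, at chr7:46715677-46715926 on the minus strand for Saa3 and at chr7:30944030-30944279 on the minus strand for Hamp.
Socs3: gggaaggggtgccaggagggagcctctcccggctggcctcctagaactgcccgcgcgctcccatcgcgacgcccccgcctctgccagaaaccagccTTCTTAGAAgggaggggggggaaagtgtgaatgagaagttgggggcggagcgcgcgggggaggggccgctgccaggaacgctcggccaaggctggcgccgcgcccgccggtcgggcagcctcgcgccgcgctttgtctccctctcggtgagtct
Timp1: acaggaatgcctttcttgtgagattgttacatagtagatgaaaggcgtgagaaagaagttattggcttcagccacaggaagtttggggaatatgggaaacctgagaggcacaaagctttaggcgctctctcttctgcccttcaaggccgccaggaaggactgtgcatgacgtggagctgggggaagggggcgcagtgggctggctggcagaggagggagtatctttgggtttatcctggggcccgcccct
Saa3: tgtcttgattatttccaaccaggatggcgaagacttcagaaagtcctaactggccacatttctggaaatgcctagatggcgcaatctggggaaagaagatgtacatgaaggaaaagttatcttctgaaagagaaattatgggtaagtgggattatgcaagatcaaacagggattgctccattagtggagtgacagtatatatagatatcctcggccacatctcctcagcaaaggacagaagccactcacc
Hamp: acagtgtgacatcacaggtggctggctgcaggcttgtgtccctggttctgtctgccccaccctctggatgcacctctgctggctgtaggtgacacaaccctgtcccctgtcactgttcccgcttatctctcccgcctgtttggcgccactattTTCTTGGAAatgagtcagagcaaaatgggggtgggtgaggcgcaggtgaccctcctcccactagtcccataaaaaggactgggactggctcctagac
The Socs3 window held the motif 154 bases before the start and the Hamp window 97 bases before it. The Timp1 and Saa3 windows held no such letters. In windows from 250 bases before to 50 after a start, the motif was found in 8.3% of 32851 RefSeq promoters, and in at least 1 promoter of 9.55% of all genes and 8.44% of the genes tested. It was found for 7 of the 46 higher genes that had an entry (15.2%), or in 7 of their 62 promoters (11.3%), namely for B4galt1, Cish, Gcnt2, Hamp, Icam1, Socs3 and Tgm1, and for 2 of the 11 lower genes, Pdpk1 and Sgms2. The stricter form TTCCNGGAA, a subset of the first, was in 1.15% of all promoters and for 1.35% of all genes, and for Cish, Icam1 and Sgms2 among the called genes. A match describes the letters and shows no binding.

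Socs3 and Cish, feedback inhibitors of cytokine signaling, rose. Socs3, which blocks JAK activity at gp130, ranged from 5.77 to 7.33 at 0 h (median 7.07) and from 7.67 to 10.32 at 12 h (median 9.46). Every 12 h array lay above every 0 h array, and preparation 2 was the lowest at both times. The change was 2.57 on the log2 scale, a 5.95-fold rise (standard error 0.13, adjusted p = 3.31e-06). Socs3 also had the smallest adjusted p of all genes, and it was called in preparations 7 to 11 alone (adjusted p = 2.13e-04).
Cish, a SOCS protein induced by STAT5, ranged from 7.80 to 9.07 at 0 h and from 8.09 to 9.73 at 12 h. The ranges overlapped, and each preparation was higher at 12 h, by 0.30 to 0.91 (change 0.59, standard error 0.10, adjusted p = 0.0161). Of 31 tested genes of JAK-STAT signaling and its feedback, Socs3 and Cish were the only ones called (6.45%, against 0.576% of all genes). The median change was 0.09 against 0.00 over all genes. The receptor gene Il6st itself changed by 0.09 (standard error 0.10, adjusted p = 0.771) and Stat3 by 0.47 (standard error 0.15). Il1r1, the signaling receptor of IL-1, was the only 1 of 22 tested cytokine receptors that was called (4.55%). It rose by 0.79 (adjusted p = 0.0189). Tnfrsf1a, the TNF receptor of most cells, changed by 0.48 (adjusted p = 0.0701). The Il1r1 level at 0 h was near background, with its probe detected on 5 of 7 arrays.

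Of 28 tested genes that rise in the acute phase, 5 were called higher (17.9%, against 0.444% of all genes tested) and 0 lower. These were Saa3, Hamp, Saa4, Lrg1 and Lcn2. The list had a median change of 0.38, with 23 members above 0, against 0.00 over all genes and 0.11 for the same list in gp130- cells. Among all 12157 genes tested 6236 were above 0.
Saa3, a serum amyloid A protein, ranged from 8.37 to 10.86 at 0 h (median 10.33) and from 8.93 to 12.65 at 12 h (median 12.25). It was higher in every preparation, by 0.56 in preparation 2 and by 3.27 in preparation 7 at the extremes, and the ranges overlapped because preparation 2 stayed low. The change was 1.61, or 3.05-fold (standard error 0.26, adjusted p = 0.0166), with 0.59 as the mean of preparations 1 and 2 and 2.02 in preparations 7 to 11.
Hamp, which encodes hepcidin, the hormone that blocks iron export, ranged from 8.55 to 11.64 at 0 h (median 11.24) and from 10.58 to 13.07 at 12 h (median 12.23). Preparation 7 started at 9.24 and had the largest rise, 3.03, whereas the smallest was 0.80 in preparation 10. The change was 1.48 (standard error 0.23, adjusted p = 0.0155). In preparations 7 to 11 alone it was 1.36 and did not pass (adjusted p = 0.108).
Saa4, a constitutive serum amyloid A, ranged from 5.02 to 8.00 at 0 h and from 6.14 to 9.40 at 12 h. It was lowest in preparations 1 and 2 at both times, yet its change was similar in both sets, 0.91 in preparations 1 and 2 and 1.09 in 7 to 11 (overall 1.04, standard error 0.11, adjusted p = 0.00203).
Lcn2, lipocalin 2, which withholds iron from bacteria by binding their siderophores, was already bright before IL-6. It ranged from 12.64 to 13.76 at 0 h (median 13.29) and from 13.44 to 14.24 at 12 h (median 14.07). The ranges overlapped by a small margin, and all 7 preparations rose, by 0.31 to 0.94 (change 0.66, standard error 0.09, adjusted p = 0.00817). Lrg1, a leucine-rich plasma glycoprotein, rose by 0.80 (adjusted p = 0.0481), by 1.46 in preparations 1 and 2 and by 0.53 in the others, where it did not pass (adjusted p = 0.147). Of a list of 8 genes gathered from the study's text and its PCR assays, Saa3, Hamp, Lcn2, Socs3, Timp1, Bcl3 and Nfkbiz were called (7 genes). The study chose its genes on these samples, so the count is no independent evidence. Cxcl1, a chemokine that attracts neutrophils, was the exception, with a change of 0.41 (standard error 0.11, adjusted p = 0.121). None of 19 tested chemokines was called, where 0.576% of all genes tested were. The median of that list was 0.15 here and 0.14 in gp130- cells. In preparations 7 to 11 alone Cxcl10, an interferon-induced chemokine, was called lower (-1.51, adjusted p = 0.00220). Ccl4, a chemokine of monocytes, changed by 0.54 (adjusted p = 0.135).
Of the fibrinogen chains, Fga changed by 1.56 (standard error 0.42) and did not pass (adjusted p = 0.135), and its change differed between the sets of preparations. Fga rose from 8.78 to 13.16 in preparation 1 and from 8.83 to 11.94 in preparation 2, whereas in preparations 7 to 11 it started between 12.80 and 13.31 and changed by 0.42 to 0.96. This was 1 of 3 genes (0.0247%) whose change differed between the sets, by 3.06 (adjusted p = 0.00682 in limma's test of the difference), and within preparations 7 to 11 alone Fga was called higher with a change of 0.68 (adjusted p = 0.0446). Fgb and Fgg, the other chains, changed by 0.47 and 0.85 and were not called, and the Fgb probe was detected on 1 of 7 arrays at 0 h. Saa1, the main inducible serum amyloid A, changed by 0.51 with an adjusted p of 0.0377 and a fold under 1.5.
Among 22 tested genes that fall in the acute phase, such as Ttr, the carrier of thyroxine and retinol-binding protein, 0 were called in either direction. Over all genes tested 0.576% were called, so a count of 0 does not set this list apart. Ttr changed by -0.15 (standard error 0.10, adjusted p = 0.555). The median of this list was 0.01.

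**Figure D2:**
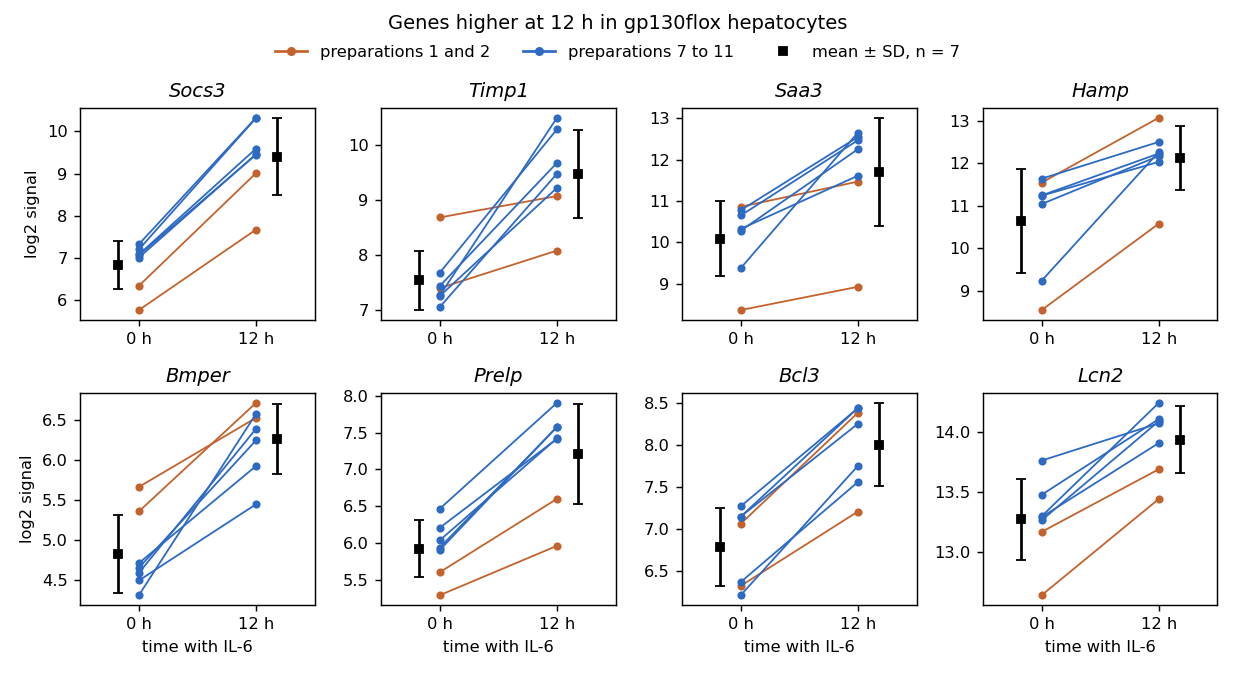
Log2 signal of 8 genes at 0 h and 12 h, with a line for each of the 7 gp130flox preparations and squares with bars for the mean ± SD. Socs3 is the 1 gene of these 8 whose arrays do not overlap, and Timp1 and Saa3 rise more steeply in preparations 7 to 11 than in preparations 1 and 2.

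Of 45 tested genes of the extracellular matrix and its proteases, 4 were called higher (8.89%, against 0.444% of all genes tested) and 0 lower. The list as a whole had a median change of 0.04, with 27 members above 0 and 18 below. Timp1, an inhibitor of matrix metalloproteinases, ranged from 7.05 to 8.68 at 0 h (median 7.40) and from 8.08 to 10.49 at 12 h (median 9.47). The rise was small in preparations 1 and 2, at 0.68 and 0.39, and 1.96 to 3.23 in the others. The change was 1.93, or 3.81-fold (standard error 0.29, adjusted p = 0.0123), and the difference between the sets, -1.95, did not pass its own test (adjusted p = 0.107). A further Timp1 probe changed by 2.00.
Prelp, a proteoglycan that anchors basement membranes, ranged from 5.30 to 6.47 at 0 h and from 5.96 to 7.90 at 12 h, with preparations 1 and 2 the lowest at each time. It rose by 1.28 (standard error 0.12, adjusted p = 9.88e-04). Tgm1, a transglutaminase that cross-links proteins, rose by 1.25 (adjusted p = 0.00333), and Sh3pxd2b, a scaffold of podosomes, by 0.67 (adjusted p = 0.0219).
Among 26 tested BMP, activin and Id genes, 2 rose (7.69%, against 0.444% of all genes tested). Bmper, a secreted BMP-binding protein, lay near background before IL-6, with the probe detected on 4 of 7 arrays. It ranged from 4.31 to 5.66 at 0 h and from 5.45 to 6.72 at 12 h. Preparation 1 and preparation 2 were the highest at 0 h, and the smallest rise was 0.87 in preparation 2 (change 1.44, standard error 0.15, adjusted p = 0.00203). Id1, an inhibitor of basic helix-loop-helix factors and a target of BMP signaling, ranged from 6.66 to 8.55 at 0 h and from 8.35 to 9.22 at 12 h, with the ranges overlapping through preparation 1 (change 1.08, adjusted p = 0.00570).

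Of 21 tested NF-kappaB and IkappaB regulators, 2 rose (9.52%, against 0.444% of all genes tested) and 0 fell. Both encode nuclear IkappaB proteins. Bcl3 ranged from 6.21 to 7.27 at 0 h (median 7.06) and from 7.20 to 8.44 at 12 h (median 8.25). The overlap came from preparation 2 at 12 h, and the rises were alike, 0.88 to 1.54 (change 1.21, standard error 0.09, adjusted p = 1.18e-04). Nfkbiz ranged from 8.21 to 8.81 at 0 h and from 9.29 to 9.90 at 12 h without overlap (change 0.92, standard error 0.11, adjusted p = 0.00364).
Cebpb, the transcription factor C/EBP-beta, was the only 1 called of 24 tested C/EBP and AP-1 factors (4.17%, against 0.576% of all genes). It rose from a range of 10.81 to 11.59 to one of 11.62 to 12.48 (change 0.69, standard error 0.09, adjusted p = 0.00424), without overlap. Noct, a deadenylase with a daily rhythm in liver, rose from a range of 8.63 to 9.55 to one of 9.66 to 10.26 (change 0.88, adjusted p = 0.00274). It was the 1 called gene of 19 tested circadian genes (5.26%, against 0.576% of all genes).
Il33, an alarmin cytokine of the IL-1 family, ranged from 5.21 to 6.87 at 0 h and from 6.41 to 7.28 at 12 h, with preparations 1 and 2 the highest at 0 h. It rose by 1.01 (adjusted p = 0.0124), by 0.36 in preparations 1 and 2 and by 1.27 in 7 to 11. Il33 was the 1 called of 26 tested genes of Toll-like and IL-1 receptor signaling (3.85%, against 0.576% of all genes). Irak3, an inhibitor of that pathway, changed by 0.49 (adjusted p = 0.0564), and Fosl2, an AP-1 subunit, by 0.50 (adjusted p = 0.0741). Icam1, an adhesion molecule for leukocytes, rose by 0.66 (adjusted p = 0.0166), whereas Vcam1, another such molecule, fell.

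Serpina7, which encodes thyroxine-binding globulin, ranged from 6.61 to 10.97 at 0 h and from 8.73 to 11.71 at 12 h. The low end was preparation 2 at both times, and the change was 1.17 (standard error 0.19, adjusted p = 0.0161), with a rise of 0.17 in preparation 7 and 2.12 in preparation 2. Serpina10, the protein Z-dependent protease inhibitor of coagulation, rose by 0.84 (adjusted p = 0.0489). With Plat, which fell, it made 2 called of 26 tested genes of coagulation and fibrinolysis (7.69%, against 0.576% of all genes). Hamp and Lcn2 were the 2 called of 28 of iron, zinc and copper handling (7.14%).
Denn2b, a regulator of Rab GTPases, rose without overlap from a range of 8.12 to 9.27 to one of 9.68 to 10.42 (change 1.24, standard error 0.15, adjusted p = 0.00424). Its second probe changed by 1.17. Kif22, a kinesin of the mitotic spindle, changed by 1.05 (adjusted p = 0.0481), by 0.20 in preparations 1 and 2 and 1.40 in the others. Of 48 tested cell cycle genes 0 were called, which does not set them apart at a share of 0.576% over all genes.
Angptl4, an inhibitor of lipoprotein lipase, rose by 0.66 (adjusted p = 0.00619). It was the 1 called of 33 tested genes of fatty acid oxidation and ketogenesis (3.03%, against 0.576% of all genes). Nat8, an acetyltransferase, rose by 0.73 (adjusted p = 0.0161), and the related genes Nat8f2 and Nat8f4 by 0.59 and 0.65. Other probes of Nat8f4 changed by -0.10 to 0.07. Whether the probes tell these close copies apart was not tested. Hif1a, the oxygen-regulated transcription factor, rose by 0.87 (adjusted p = 0.0352), but its other probe changed by -0.03. In all, 27 called genes had another detected probe, and 32 of these 40 probes changed in the same direction as the tested one. Other probes with little or opposite change included those of Efna5 (-0.03), B4galt1 (-0.07), Gcnt2 (-0.20, against 0.76 for a further one), Angptl4 (0.08) and Sh3pxd2b (0.05). Further such probes were those of Tmem53 (0.10 and 0.10), Syt12 (0.19), Xkr9 (-0.02, against -0.77) and Abca6 (-0.16, against -0.57). Several of the 32 probes thus changed little, and their count does not show that probes changed alike in size.
Fcgr4, an Fc receptor of myeloid cells, rose by 0.77 (adjusted p = 0.0160). Of 15 tested Kupffer cell markers 12 were above 0, with a median of 0.20 and 0 called, led by Cd14 at 0.52 (adjusted p = 0.0773), C1qa at 0.48 (adjusted p = 0.106) and Adgre1 at 0.43 (adjusted p = 0.0738). Of 14 endothelial markers 12 were above 0, with a median of 0.19 and 0 called. Among all 12157 genes tested 6236 were above 0. Hepatocyte (17 tested), stellate cell (10), bile duct (7) and neutrophil and lymphocyte (4) markers held 0 called genes. At a share of 0.576% called over all genes, the counts of 0 do not set any of these marker lists apart. The part of these cells in the rises was not tested.

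The 16 lower genes fell by 1.51- to 2.03-fold, and no list held more than 1 of them. They included an enzyme of amine synthesis, enzymes and transporters of lipids, a kinase each of the Src and AGC families, a sodium pump subunit, a glucuronosyltransferase and a plasminogen activator.
Ddc, which decarboxylates aromatic amino acids to make dopamine and serotonin, ranged from 5.83 to 9.90 at 0 h (median 6.84) and from 4.92 to 9.34 at 12 h (median 5.79). Preparation 1 was far above the others at both times, and all 7 fell, with changes from -2.15 in preparation 10 to -0.44 in preparation 2. The change was -1.02, a 2.03-fold fall (standard error 0.18, adjusted p = 0.0210). One further probe changed by -0.84 and another by -0.07.
Among genes of lipids, Lpin2, a phosphatidate phosphatase of triglyceride synthesis, ranged from 6.20 to 7.15 at 0 h and from 5.42 to 6.63 at 12 h. The ranges overlapped through preparation 8, the highest at both times (change -0.86, standard error 0.10, adjusted p = 0.00364). Its other probes changed by -0.29, -0.20 and 0.11. Sgms2, a sphingomyelin synthase of the plasma membrane, ranged from 9.71 to 10.09 at 0 h and from 8.80 to 9.54 at 12 h, without overlap (change -0.63, standard error 0.09, adjusted p = 0.0100). Abca6, an ABC transporter of the lipid-carrying subfamily, fell by 0.81 (adjusted p = 0.0198). It was near background at 12 h, with the probe detected on 4 of 7 arrays. Pip4p2, a phosphoinositide phosphatase, fell by 0.60 (adjusted p = 0.0481).
Vcam1, the endothelial adhesion molecule, ranged from 6.36 to 7.83 at 0 h and from 5.71 to 7.26 at 12 h, with preparation 1 the lowest at both times (change -0.77, standard error 0.10, adjusted p = 0.00424). Its other probes changed by 0.02 and -0.22. Atp1b1, the beta subunit of the sodium pump, had a narrow range of 8.54 to 8.76 at 0 h and lay at 7.60 to 8.39 at 12 h, without overlap (change -0.68, adjusted p = 0.0142).
Of kinases, Frk, a Src-family kinase of epithelial cells, fell by 0.94 (adjusted p = 0.0471), by 0.25 in preparations 1 and 2 and by 1.21 in the others, and Pdpk1, which activates Akt, fell by 0.64 (adjusted p = 0.0377). Bcl2l14, a BCL2-family protein, fell by 0.90 (adjusted p = 0.0189). Plat, the tissue plasminogen activator, ranged from 5.91 to 10.49 at 0 h and from 5.06 to 9.83 at 12 h, with preparations 1 and 2 far above the rest, and all 7 fell (change -0.64, adjusted p = 0.0423). Ugt2b35, a glucuronosyltransferase that conjugates steroids and drugs, ranged from 8.23 to 11.36 at 0 h and from 7.77 to 10.70 at 12 h, with preparation 1 the highest (change -0.66, standard error 0.10, adjusted p = 0.0161). It was the 1 called lower of 44 tested conjugating enzymes, where 0.132% of all genes tested were called lower. Klrg2, Mospd1, Xkr9 and Clip4 fell by 0.81, 0.70, 0.70 and 0.62.
Over all genes tested 0.132% were called lower, so a count of 0 in the lists that follow does not set them apart from other genes. Of 48 tested cytochromes P450, 0 were called and 37 were below 0, with a median of -0.10 against 0.00 over all genes and 0.00 in gp130- cells. Among all 12157 genes tested 5921 were below 0. Cyp2d9 changed by -0.47 (adjusted p = 0.132) and Cyp2f2 by -0.37 (adjusted p = 0.115). Of 26 tested bile acid genes and hepatic transporters 0 were called, and Abcc2, the canalicular export pump, changed by -0.65 (adjusted p = 0.0611). Of 42 tested genes of amino acid and urea metabolism 0 were called, and Slc7a2, a transporter of cationic amino acids, changed by -0.59 (adjusted p = 0.0618) and was called lower in preparations 7 to 11 alone (-0.71, adjusted p = 0.0496). At an adjusted p under 0.05 but a fold under 1.5, Cbs, which makes cystathionine, changed by -0.43 and the nuclear receptor gene Pparg by -0.43. Lists of complement (27 tested), cholesterol and fatty acid synthesis (36), gluconeogenesis, glycolysis and insulin signaling (37), nuclear receptors and liver transcription factors (35), growth hormone and IGF (17), secretory stress (40), interferon response (43), survival (28) and antioxidant and heat shock genes (32) held 0 called genes each. Of their members Xbp1, a factor of the unfolded protein response, changed by 0.50 with an adjusted p of 0.0377 and a fold under 1.5, the retinoic acid receptor Rarb by -0.50 (adjusted p = 0.0605) and Srxn1, a sulfiredoxin, by -0.41 (adjusted p = 0.0586). Cell cycle gene Ccnd2, a cyclin, changed by -0.63 (adjusted p = 0.169), and Oasl1 of the interferon response by -0.58 (adjusted p = 0.263).

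**Figure D3:**
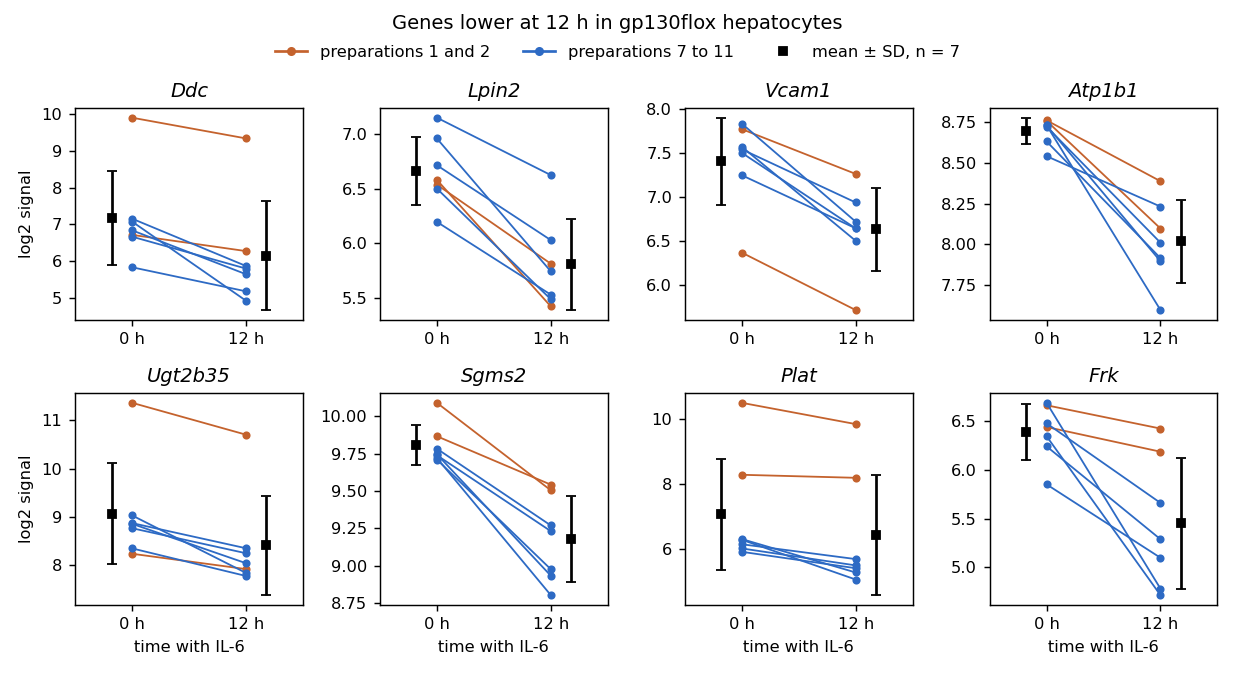
Log2 signal of 8 of the genes that fell, with a line for each of the 7 gp130flox preparations and squares with bars for the mean ± SD. Sgms2 and Atp1b1 have no overlap between the times, and Plat in preparations 1 and 2 starts far above the other 5.

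The called genes were also followed over the earlier times. In a fit of all 33 gp130flox arrays, whose changes share the 0 h arrays, Socs3 changed by 3.30, 3.13, 2.82 and 2.57 at 1, 3, 6 and 12 h. Of the 54 higher genes 10, 26 and 34 had an adjusted p under 0.05 at 1, 3 and 6 h, and of the 16 lower genes 0, 2 and 7. These genes were picked for their 12 h call, the times differ in array number, and the share over all genes is not given here. The counts therefore do not show when genes changed. Saa4 changed by -0.01, 0.25, 0.73 and 1.04 and Prelp by -0.15, 0.61, 0.89 and 1.28 at the 4 times. Nfkbiz changed by 0.85, 0.94, 0.93 and 0.92, Bcl3 by 0.97, 1.71, 1.45 and 1.21, and Cebpb by 0.47, 0.78, 0.72 and 0.69. Cish and Angptl4 were highest at 1 and 3 h, with 1.17 and 1.53, and stood at 0.59 and 0.66 at 12 h.
Tested directly, 12 h exceeded 3 h for 2 genes (0.0165%) and lay below it for 6 (0.0494%). The former were Wfdc2, a whey acidic protein, with a difference of 0.78 (adjusted p = 0.0490), and Mab21l4, with 0.74 (adjusted p = 0.00778), and both also rose from 0 h. The latter were Plat (-1.05, adjusted p = 4.18e-04), Sgms2 (-0.68, adjusted p = 7.22e-04), Sgk2, Rrad, Nipal1 and Socs2. Plat had a change of 0.41 at 3 h and of -0.64 at 12 h. Socs2, a SOCS gene, changed by 0.76 at 3 h (adjusted p = 3.99e-05) and by 0.17 at 12 h. For Socs3, Timp1, Saa3 and Hamp the difference between 12 h and 3 h did not pass. Nor did it for Saa4, Prelp, Cish and Angptl4 (adjusted p = 0.140, 0.549, 0.142 and 0.137 in limma), or for Nfkbiz, Bcl3 and Cebpb. Wfdc2, Mab21l4, Plat and Sgms2 were the only genes called at 12 h against 0 h that passed.

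**Figure D4:**
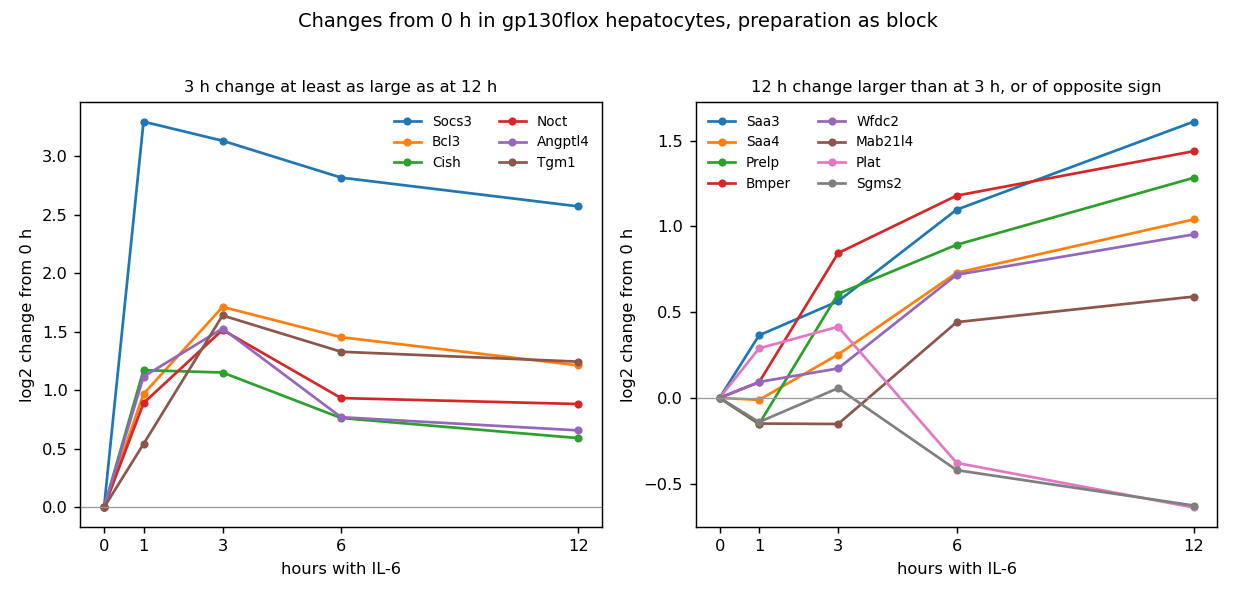
Log2 change from 0 h against hours with IL-6 in all 33 gp130flox arrays, with the preparation as a block and every line starting at 0. Genes on the left have a 3 h change larger than that at 12 h, as Socs3 does with 3.13 and 2.57, and genes on the right change further after 3 h, as Saa3 does from 0.56 to 1.61, or turn below 0, as Plat does. Of the genes shown, only Wfdc2, Mab21l4, Plat and Sgms2 differed between 12 h and 3 h in limma's test.

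The same comparison in gp130- hepatocytes, 6 preparations at each time, called 0 genes (0%), and 11 had an unadjusted p under 0.05 with a fold over 1.5. Of these 6 preparations 3 (numbers 2 to 4) were low in hepatocyte markers, against 2 of 7 for gp130flox. Apoa1 was at 9.64 ± 0.16 (SD, n = 6 arrays) in these 3 and at 14.28 ± 0.18 (SD, n = 6) in the other 3, and Cyp2e1 at 4.82 and 13.58. The genotype groups thus differed in the share of such preparations, and its part in the difference was not tested beyond the values within preparations 6 to 11. The change in gp130flox cells differed from that in gp130- cells for 18 genes (0.148%) in limma's test of the difference, 17 with a higher (0.140%) and 1 with a lower change (0.00823%). Of the 54 higher genes 15 were among them, and of the 16 lower genes 1, Ugt2b35 (difference -0.72, adjusted p = 0.0432). These genes were picked for their gp130flox change, and the test of the difference uses the same gp130flox arrays. The overlap is thus no independent evidence, and the differences of picked genes may be overstated. Socs3 changed by 0.12 in gp130- cells, with -0.22 to 0.51 over preparations, and the difference was 2.45 (standard error 0.18, adjusted p = 7.60e-07). The differences were 1.31 for Prelp (adjusted p = 5.11e-04), 1.30 for Bcl3 (adjusted p = 5.08e-04), 1.39 for Denn2b and 1.25 for Tgm1. Timp1, at 1.89, passed as well (adjusted p = 0.0318).
Saa3 and Hamp were not shown to differ. In gp130- cells Saa3 changed by 0.64, with 0.15 to 1.00 over preparations, and Hamp by 0.47, with 0.10 to 1.30, so all 6 preparations were above 0 for both genes. The differences of 0.97 and 1.01 did not pass (adjusted p = 0.335 and 0.276). Fcgr4 changed by 0.40 in gp130- cells, and its difference was 0.37 (adjusted p = 0.720). Of the 54 higher genes 33 had a change above 0 in gp130- cells, and of the 16 lower genes 14 had one below 0. The share of all genes above or below 0 in gp130- cells is not given here, so these counts set neither group apart. Over all genes the median gp130- change was -0.01. The 2 lead falls, Ddc and Frk, changed by -0.06 and -0.25 in gp130- cells, and their differences did not pass (adjusted p = 0.123 and 0.446). Without gp130flox preparation 1 the test of the difference called 33 genes, without preparation 2 it called 30, and without preparation 11 it called 10. It called 11 without gp130- preparation 2 and also without gp130- preparation 7, and within preparations 6 to 11 it called 6.

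**Figure D5:**
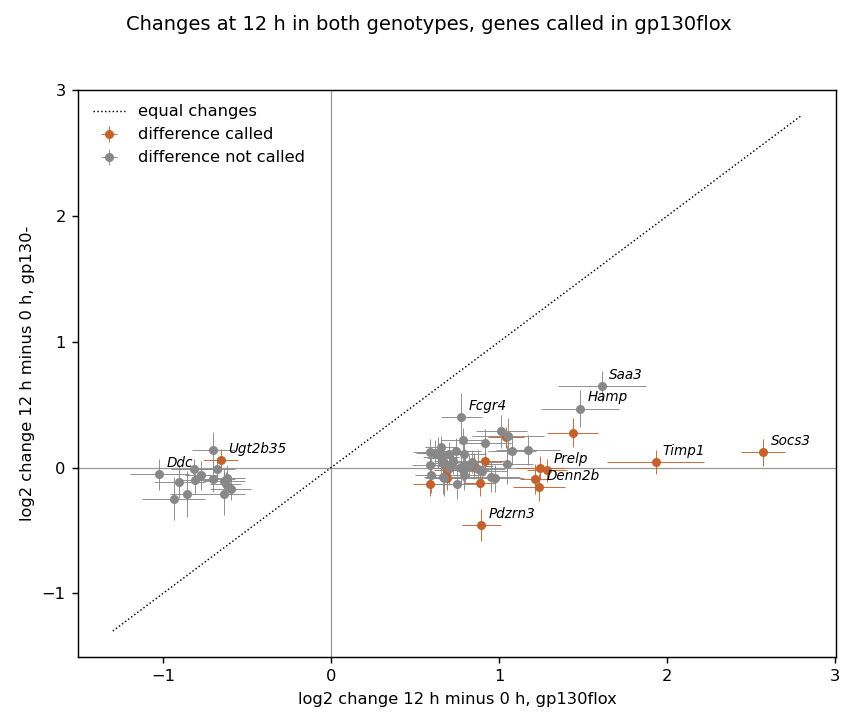
Log2 change from 0 h to 12 h in gp130flox (x axis, n = 7 preparations) against gp130- hepatocytes (y axis, n = 6 preparations) for the 70 called genes, with standard errors as bars and equal changes as a dotted line. Orange genes differ between the genotypes in limma's test of the difference, and most genes lie near 0 on the y axis, with Saa3 highest at 0.64. The genes shown were picked for their gp130flox change.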

How the data were processed

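The deposited signal intensity of 45281 probes was extracted by the authors with GenomeStudio 1.6.0, on a linear scale and without normalization, beside a detection p-value per probe. The authors also deposited intensity values after cubic spline normalization, used as an alternative. Background was corrected by neqc (limma 3.58.1, R 4.3.3), which inferred the negative controls from detection p. An offset of 16, which shrinks changes of dim genes, preceded quantile normalization of all 61 arrays and log2. Of the probes 34885 named 1 gene and were used. Those detected (p under 0.05) on 5 or more arrays were kept, and the brightest stood for its gene. lmFit and eBayes tested 12 h against 0 h over 14 arrays with the preparation as a fixed block, the difference of changes between genotypes and between sets of preparations, and 12 h against 3 h over 33 arrays. No 2 arrays were identical. The number of arrays limits the precision.

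The number in the column names was taken to pair the arrays. The 0 h array was closest to the 12 h array of its own number for 2 of the 7 numbers. Deviations from the group means correlated between 0 h and 12 h arrays of 1 number with r = 0.47 to 0.94, and within preparations 7 to 11 with r = -0.13 to 0.18, so the pairing rests mostly on the sets. Members and gene lists were chosen with earlier results of these data known. The genes named were the 12 largest called rises and falls, 8 genes gathered from the study's text and its PCR assays, Il6st, and up to 4 called members of each list, with the 1 or 2 members of smallest p where fewer than 2 were called, given here in part. Further genes, and those of other comparisons, were picked with their values in view. Promoters came from RefSeq tables of GRCm38.p6, and Python 3.11.15 with pandas 2.3.3 searched them. The fits were tested on simulated data. Alternatives were other blocks, samples, normalizations, offsets, filters, thresholds and probes, array weights, limma-trend and leaving out each preparation.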

Additional observations from a re-analysis of the deposited data

Results flagged for a closer look

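Of 72 changes examined for a single preparation far from the other 6, 3 stood out, and chance alone marks about 1 in 20. The Angptl4 change was 1.06 in preparation 1 against 0.50 to 0.72 in the others. The Bcl2l14 change was -1.93 in preparation 10 against -1.08 to -0.55. The Il6st change was -0.45 in preparation 8 against 0.00 to 0.31.
The 12 h change differed between gp130flox and gp130- hepatocytes, in the test of the difference, for 16 of the called genes. The calls and this test share the gp130flox arrays, so the overlap is no independent evidence. The differences on the log2 scale were 2.45 for Socs3, 1.89 for Timp1, 1.39 for Denn2b, 1.35 for Pdzrn3, 1.31 for Prelp, 1.30 for Bcl3, 1.25 for Tgm1 and 1.16 for Bmper. They were 1.00 for Noct, 0.86 for Nfkbiz, 0.84 for Sema6b, 0.80 for Saa4, 0.77 for Cebpb, 0.72 for Mab21l4, 0.71 for Niban2 and -0.72 for Ugt2b35. For Pdzrn3 the gp130- change was -0.46, and 2 further Pdzrn3 probes changed by 0.08 and 0.23 in gp130flox cells.
The change differed between preparations 1 and 2 and preparations 7 to 11 for 3 genes (0.0247%), by 3.06 for Fga, 2.19 for Cxcl10 and 1.86 for Rsad2. Cxcl10 changed by 0.79 and 0.58 in preparations 1 and 2 and by -1.71 to -1.15 in the others. Its 0 h levels were 5.07 and 5.25 in the former and 9.63 to 10.05 in the latter. Rsad2, an antiviral interferon-induced enzyme, changed by 1.48 and 1.19 and by -1.05 to -0.19. None of the 70 called genes passed the test of the difference between the sets, which does not show that they changed alike. The smallest adjusted p among them was 0.107 for Timp1.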

How the results depend on the processing

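Of 1890 settings of the 70 called genes (27 for each gene), 1143 kept the direction and the call, 747 kept the direction alone and 0 reversed. Settings such as no block, a random block, other fold thresholds and limma-trend keep the mean change, so no reversal could occur there. Fits without 1 preparation share most arrays with the main fit. The counts of higher and lower genes, 54 and 16, were 6 and 1 without the replicate block, 32 and 10 with it as a random effect, and 54 and 9 with the set of preparations as the only block, a setting added after seeing the data. They were 71 and 33 with all arrays of both genotypes, 73 and 52 in preparations 1 and 2 alone, and 24 genes were lower with all gp130flox arrays. Leaving out 1 preparation gave 27 to 49 higher and 4 to 26 lower genes. Equalized array medians gave 9 and 0, an offset of 50 gave 26 and 4, no detection filter 20 and 5, a filter at 7 of the 14 arrays 66 and 27, no fold threshold 73 and 33, and a fold over 2 15 and 1. The authors' cubic spline values gave 0 and 0 with the block from the titles, whose numbers did not pair the arrays (r = -0.72 to 0.95), and 6 and 1 with no block, again added after seeing the data. The difference between genotypes, 18 genes, held 10 to 33 when 1 preparation was left out and 6 within preparations 6 to 11. The difference between 12 h and 3 h, 8 genes, held 4 with an offset of 50, 4 with a random block and 26 within preparations 7 to 11. The difference between the sets, 3 genes, held 8 with a random block. A fold threshold and filter set the count by construction, and the cause of the other shifts was not tested. Socs3, Bcl3, Prelp and Bmper were called whichever preparation was left out, as were others such as Hamp, Lcn2 and Vcam1. Among the lead genes, Timp1 and Saa3 kept the call in 5 of these 7 fits, Ddc in 4 and Frk in 2. Signals near background bound the folds of dim genes such as Bmper and Abca6.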
